A study of Bos taurus with 138 samples.

Results

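The genes of the activin, inhibin and follistatin system were followed from the immature oocyte to the blastocyst: INHA, INHBA, INHBB, FST, ACVR2A, ACVR2B and ACVR1B. They were chosen by name as the ligand subunits, the binding protein and the receptors of this system, and these 7 genes were all found among the 16706 gene symbols of the count table. Activins are dimers of the beta subunits encoded by INHBA and INHBB. Inhibins pair the alpha subunit, encoded by INHA, with a beta subunit, and oppose activin. Follistatin, encoded by FST, binds activin outside the cell and keeps it from its receptors. Activin binds a type II receptor, ACVR2A or ACVR2B, which recruits and phosphorylates the type I receptor ACVR1B, and the signal passes to SMAD2 and SMAD3. In the ovary these genes are best known from granulosa and cumulus cells, and in cattle FST has been studied in the oocyte and early embryo.

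The study examined in vitro produced Bos taurus material at 6 stages, namely germinal vesicle (GV) oocytes, metaphase II (MII) oocytes, 2-cell embryos, 8-cell embryos, Morula and Blastocyst, none of which carried a genetic change. GV oocytes came from slaughterhouse ovaries, MII oocytes were matured in vitro, and embryos were made by in vitro fertilization with semen of a Holstein bull. Cumulus cells and zona pellucida had been removed, and all material was treated with cycloheximide to hold ribosomes on mRNA. Lysates were run on sucrose gradients and each gradient was split into 10 fractions, F1 to F10, from free RNA through monosomes to polysomes, with 2 gradients (A and B) per stage. The 3 transcriptomes per stage (A, B and C) were libraries of unfractionated pools, each of fewer oocytes or embryos than a gradient, taken from the same batch. In all, 120 fraction libraries and 18 transcriptomes were sequenced. Polysome-occupied mRNA was taken here as the sum of F8 to F10 of a gradient, which gave 12 polysome pools. The replicates are pools of oocytes or embryos that may share a batch within a stage, so the p-values measure the spread between such pools and not between animals. Since every library is a bulk sample, fewer cells of a type and less RNA per cell cannot be told apart.

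Levels are given as CPM (counts scaled to the library total) scaled by TMM factors, with the libraries of a group in the order A, B and, for transcriptomes, C. Total counts were 3269386 to 11812567 in the transcriptomes and 22543733 to 39380640 in the polysome pools, so that 3 counts, taken as the floor of detection, stood for 0.226 to 0.882 CPM in a transcriptome and 0.0757 to 0.145 CPM in a pool. These limits cover counting error only. Levels are compared within a gene across libraries and never between genes, because transcript lengths were not used here. A gene was called between polysome pools and transcriptome at an adjusted p below 0.05, and between consecutive stages at an adjusted p below 0.05 with a fold change above 2.

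The material carried the markers of its stage. The 10 oocyte markers together ranged from 13940 to 27550 CPM in the GV, MII and 2-cell transcriptomes and from 30.3 to 811 CPM in those of Morula and Blastocyst, whereas 8 trophectoderm markers together reached 5436 to 6392 CPM in the Blastocyst transcriptomes. Markers of other cells were also present. The 19 fibroblast or mesenchymal markers summed to 16510 CPM in 8-cell transcriptome A, against 3086 CPM in B and 2689 CPM in C, and to 1476 and 1807 CPM in the 8-cell polysome pools. The same list summed to 23.4 to 28.8 CPM in the GV transcriptomes and 27.6 to 38.4 CPM in the 2-cell transcriptomes. In the Morula and Blastocyst transcriptomes it summed to 1042 to 1926 and 3741 to 4805 CPM, so that a high sum was not particular to 8-cell. FN1 made up most of these later sums, at 1010, 1510 and 678 CPM in Morula and 3380, 4300 and 4370 CPM in Blastocyst. At 8-cell FN1 was at 160, 33.8 and 56.5 CPM. POSTN and COL3A1 of the same list were at most 6.2 and 1.21 CPM in these later transcriptomes, while DCN was at 15.7 to 32 CPM in Morula. The 8-cell transcriptome A stood apart from its replicates in the sum of this list. Several comparisons between groups that use it are also given without it.

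**Figure D1:**
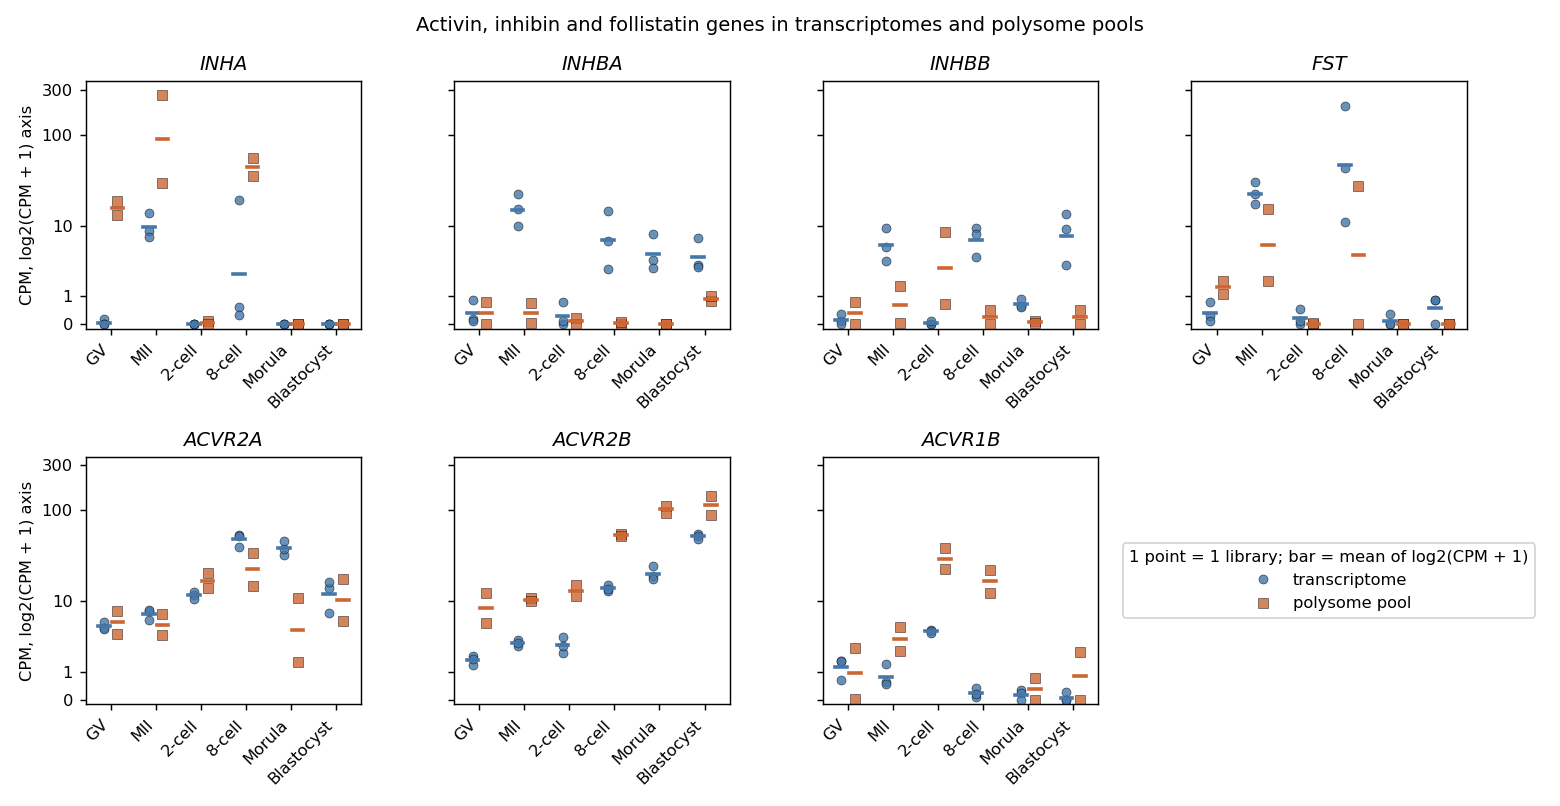
Each panel plots 1 gene, with the 6 stages on the x axis and CPM on a log2(CPM + 1) y axis. Blue circles are the 3 transcriptomes of a stage, orange squares the 2 polysome pools, and bars the mean of log2(CPM + 1). In the transcriptomes INHA, INHBA, INHBB and FST were present at MII and low or absent at 2-cell. At 8-cell INHBA, INHBB and FST were present again in all 3 libraries, while INHA was clear in library A and near the floor in B and C. ACVR2B rose through to the Blastocyst and lay higher in the polysome pools than in the transcriptomes at every stage.

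In the transcriptomes, the subunit and follistatin genes moved together across the first transitions. From GV to MII, 4 of the 7 genes rose (INHA, INHBA, INHBB and FST) and none fell, where 17.1% of the 14612 genes tested were called in either direction. From MII to 2-cell the same 4 genes fell and none rose, against 12% of all genes. From 2-cell to 8-cell, the transition that spans embryonic genome activation, all 7 were called, 6 higher and ACVR1B lower, against 50.1% of all genes. From 8-cell to Morula 2 fell (INHA and FST), against 14.4%, and from Morula to Blastocyst ACVR2B rose and ACVR2A fell, against 21.6%. The median log2 fold change of the members was 5.49, -5.91, 4.91, -0.72 and 0 over the 5 transitions, where the median of all genes lay between -0.05 and 0.03.

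In the polysome pools, with 2 libraries per stage, 10 calls were made over the 5 transitions, against 19 in the transcriptomes, with 3 libraries per stage. From 8-cell to Morula the pools had more (4 against 2), as they had over all genes (36.2% against 14.4%). None was called from GV to MII by edgeR, where 5.37% of all genes were, nor by DESeq2, and 1 member (INHA) had an unadjusted p below 0.05. From MII to 2-cell 2 fell (INHA and FST), against 8.51% of all genes. From 2-cell to 8-cell 3 rose (INHA, FST and ACVR2B), against 46.3%. From 8-cell to Morula 4 fell (INHA, FST, ACVR2A and ACVR1B), against 36.2%, and from Morula to Blastocyst INHBA rose, against 13.9%.

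Set against the transcriptome of the same stage, 2 members were higher in polysome pools and none lower at GV, where 39.8% of all genes were called, and 2 were higher and 1 lower at MII, against 57.5%. At 2-cell 2 were higher and none lower, against 51%. At 8-cell 2 were higher and 2 lower, against 59.1%. At Morula 1 was higher and 2 lower, against 51.7%, and at Blastocyst 1 was higher and 1 lower, against 40.1%. The shares of the 7 members called lie near or below the shares of all genes.

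**Figure D2:**
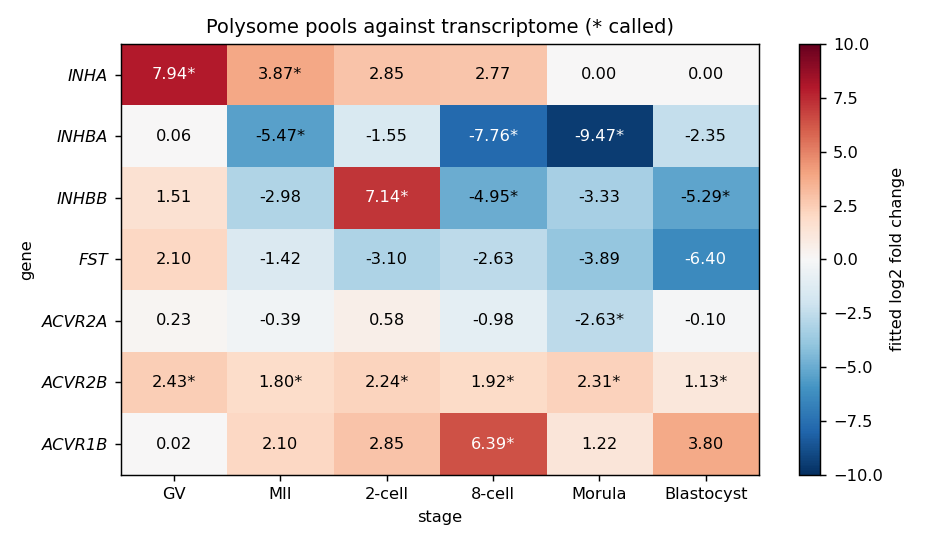
Fitted log2 fold change of the polysome pools against the transcriptome for each gene (rows) at each stage (columns), with red for higher in polysome pools and blue for lower, and an asterisk for a called difference. ACVR2B is called higher at all 6 stages, while INHBA is called lower at MII, 8-cell and Morula. Values where either group is at or near 0 counts depend on the prior count of the fit.

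INHA encodes the inhibin alpha subunit, which is particular to inhibins. In GV transcriptomes it was at 0.152, 0 and 0 CPM, which is 2 counts in all, but the GV polysome pools held 13.4 and 19 CPM. The groups did not overlap and the difference was called (adjusted p = 0.00173). At MII the transcriptomes held 8.7, 14.1 and 7.38 CPM and the pools 30.3 and 265 CPM. Both pools lay above all 3 transcriptomes, and the pools differed widely from each other. The log2 fold change was 3.87 ± 1.29 (SE, n = 2 and 3; adjusted p = 0.0176). It fell to 1.56 (adjusted p = 0.41) without MII pool B, and the adjusted p rose to 0.0574 without MII transcriptome A and to 0.0631 without C.

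At 2-cell INHA was at 0 in all 3 transcriptomes and at 0.0834 and 0 CPM in the pools. The transcriptomes had thus dropped at least 43.5-fold from MII (adjusted p = 0.00385). The pools had dropped as well (adjusted p = 0.00419), a call with an adjusted p of 0.0533 without 2-cell pool B. At 8-cell the transcript was found again, with 19.4, 0.538 and 0.261 CPM in the transcriptomes and 36.1 and 55.8 CPM in the pools. Both transitions from 2-cell to 8-cell were called, in the transcriptome (at least 29.2-fold, adjusted p = 0.00137, a bound that is at least 1.73-fold from libraries B and C alone) and in the pools (adjusted p = 0.00118). In Morula and Blastocyst INHA was at 0 in every transcriptome and every pool, a drop of at least 400-fold for the pools from 8-cell to Morula (adjusted p = 0.00116).

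INHBA encodes the beta A subunit, which forms activin A with itself and inhibin A with the alpha subunit. Its transcript was at 0.152, 0.82 and 0.101 CPM at GV, rose to 15.6, 22.9 and 9.87 CPM at MII, and was at 0, 0.719 and 0.0752 CPM at 2-cell. Every MII library lay above every GV and 2-cell library. The rise was 45-fold (log2 fold change 5.49 ± 1.47, adjusted p = 0.00955), and lost its call without GV transcriptome A (adjusted p = 0.0588) or C (adjusted p = 0.0554). The fall to 2-cell was 60.9-fold (-5.91 ± 1.49, adjusted p = 0.00923), with an adjusted p of 0.0609 without 2-cell transcriptome C.

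From the 8-cell stage the INHBA transcript stayed present, at 14.8, 2.87 and 6.61 CPM, then 3.73, 8.05 and 2.91 CPM in Morula and 3.23, 7.26 and 3 CPM in Blastocyst. The polysome pools showed another picture. INHBA was at 0.732 and 0 CPM at GV, 0.036 and 0.679 at MII, 0.167 and 0 at 2-cell, 0 and 0.0542 at 8-cell, 0 and 0 in Morula, and 0.783 and 0.979 CPM in Blastocyst pools, so that no pool reached 1 CPM at any stage. It was called lower in polysome pools than in transcriptomes at MII (-5.47 ± 1.72, adjusted p = 0.00934), at 8-cell (adjusted p = 0.00211) and in Morula (at least 42.6-fold, adjusted p = 0.00171). The call at MII had an adjusted p of 0.0832 without MII pool A.

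The low level of INHBA was not limited to the heavy fractions. Only 17 of the 120 fraction libraries held more than 3 counts of it, and none of the 24 libraries of F1 and F2 did. At MII all 20 fraction libraries lay below the lowest transcriptome, and in 8-cell, Morula and Blastocyst 19 of 20 did at each stage. Single fraction libraries were scaled by TMM factors of their own, apart from the transcriptomes. The rise from Morula to Blastocyst pools was called (at least 7.66-fold, adjusted p = 0.0401), but the call was lost without any of the 4 pools compared, with adjusted p-values of 0.103 and 0.131 without Morula pool A or B and 0.0596 and 0.0884 without Blastocyst pool A or B.

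INHBB encodes the beta B subunit of activin B and inhibin B. The transcriptomes held 0.0759, 0 and 0.304 CPM at GV, 5.5, 9.53 and 3.69 CPM at MII, 0, 0 and 0.0752 CPM at 2-cell, and 9.34, 4.12 and 8 CPM at 8-cell. The rise to MII was 49.2-fold (5.57 ± 1.67, adjusted p = 0.0198), with adjusted p-values of 0.0916, 0.0859 and 0.0513 without GV transcriptome A, GV transcriptome B or MII transcriptome B. The falls and rises on either side of 2-cell were called too (adjusted p = 0.00866 and 0.00174). Morula transcriptomes held 0.56, 0.536 and 0.862 CPM and Blastocyst transcriptomes 3.23, 13.7 and 9.2 CPM, groups that did not overlap but whose difference was not called (adjusted p = 0.0682, and 0.0215 by DESeq2).

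In polysome pools the mean of INHBB was highest at 2-cell, where pool A decided it and pool B lay below MII pool B and GV pool A. Its 2-cell and GV transcriptomes held 1 and 4 counts in all and overlapped. The 2-cell pools held 8.51 and 0.646 CPM, and both lay above all 3 transcriptomes (adjusted p = 0.00366, and 0.0949 without 2-cell pool A). Pools of the other stages held 0.732 and 0 at GV, 0.036 and 1.54 at MII, 0 and 0.434 at 8-cell, 0.0964 and 0.0288 in Morula, and 0.435 and 0 CPM in Blastocyst. Over all fractions, 18 of 20 libraries at 8-cell and all 20 in Blastocyst lay below the lowest transcriptome. The other 2 at 8-cell, F4 of gradients A and B, held 15.8 and 14.7 CPM. INHBB was called lower in pools than in transcriptomes at 8-cell (33-fold, -4.95 ± 1.83, adjusted p = 0.0237) and in Blastocyst (40-fold, -5.29 ± 1.88, adjusted p = 0.0278). These calls had adjusted p-values of 0.108 without 8-cell pool A, 0.158 without Blastocyst pool B and 0.0595 without Blastocyst transcriptome B. The fall of the pools from 2-cell to 8-cell, 21.1-fold without overlap, missed the threshold (adjusted p = 0.0543) and passed it by DESeq2 (adjusted p = 0.0157) and without 8-cell pool B (adjusted p = 0.0195).

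The change in pools was also tested against the change in transcriptomes of the same transition. By the edgeR quasi-likelihood test INHBB was called at 2 transitions. From MII to 2-cell its polysome change exceeded its transcriptome change by 10.12 ± 2.65 on the log2 scale (adjusted p = 0.0472), and from 2-cell to 8-cell it fell short of it (difference -12.09 ± 2.77, adjusted p = 0.00617). No other member was called in these transitions by this test, where 1.81% and 12.2% of all genes were, while from 2-cell to 8-cell INHBA, at an adjusted p of 0.0886, was called by DESeq2 (adjusted p = 0.0309) and by the likelihood ratio test (adjusted p = 0.0259). No member was called from GV to MII, from 8-cell to Morula or from Morula to Blastocyst, where 10.6%, 12.5% and 12.3% of all genes were. In these 3 transitions 1, 1 and 3 members had an unadjusted p below 0.05, and DESeq2 called 1 (INHBA), 0 and 2 (INHBA and ACVR2A). The INHBB fitted values rest on groups at or near 0 counts and depend on the prior count. The call from MII to 2-cell was lost without any 1 of 22 libraries, whereas that from 2-cell to 8-cell was kept without each of the 30 libraries in turn.

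FST encodes follistatin. Transcriptomes held 0.228, 0.718 and 0.101 CPM at GV, 17.5, 30.5 and 22.8 CPM at MII, and 0, 0.0799 and 0.451 CPM at 2-cell. The MII libraries lay above all GV and 2-cell libraries. The rise was 67.7-fold (6.08 ± 1.62, adjusted p = 0.00966), with adjusted p-values of 0.0551 and 0.0537 without GV transcriptome A or C, and the fall was 133-fold (-6.99 ± 1.70, adjusted p = 0.00725). At 8-cell FST stood at 202, 11.1 and 44 CPM, a 484-fold rise of the mean over 2-cell (8.85 ± 1.81, adjusted p = 0.000342). Morula transcriptomes then held 0.28, 0 and 0 CPM (adjusted p = 0.00142 for the fall), and Blastocyst transcriptomes 0, 0.829 and 0.8 CPM.

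Polysome pools held 1.11 and 1.89 CPM of FST at GV, 1.91 and 15.7 CPM at MII, 0 and 0.0308 CPM at 2-cell, 0 and 27.6 CPM at 8-cell, and 0 in all Morula and Blastocyst pools. No difference from the transcriptome was called at any stage by the edgeR quasi-likelihood test, while in Blastocyst DESeq2 called FST lower in the pools (adjusted p = 0.0129), where transcriptomes and pools overlapped at 0, and at GV a fit of only the groups compared called it higher (adjusted p = 0.0316). At MII both pools lay below all 3 transcriptomes (-1.42 ± 1.45, adjusted p = 0.413). At 8-cell FST was called lower in the pools without 8-cell pool B (adjusted p = 0.000401), which left a single pool at 0. The fall from MII to 2-cell pools was called (adjusted p = 0.022) but not without MII pool B (0.13), 2-cell pool A (0.162) or 2-cell pool B (0.122). The rise to 8-cell (adjusted p = 0.00295) and the fall to Morula (at least 120-fold, adjusted p = 0.00345) were called while the groups overlapped, and both rest on 8-cell pool B. Without it the rise turned to -1.61 (adjusted p = 0.728) and the fall to 0 (adjusted p = 1). In 8-cell gradient A FST was at 0 in all 10 fractions, while in gradient B it reached 13.6 CPM in F9 and 62.9 CPM in F10.

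The 3 transcriptomes of 8-cell embryos, of similar depth (10445268, 10431123 and 9524896 counts), differed strongly for the ligand and follistatin genes and little for the type II receptors. Library A held 19.4 CPM of INHA, 14.8 of INHBA, 9.34 of INHBB, 202 of FST, 39.9 of ACVR2A, 13.3 of ACVR2B and 0.343 of ACVR1B. Library B held 0.538, 2.87, 4.12, 11.1, 54.6, 15.6 and 0.0896 CPM of the same genes. Library C held 0.261, 6.61, 8, 44, 53.5, 14 and 0.174 CPM. Library A was thus 36.2 and 74.5 times library B and C for INHA, 18.2 and 4.59 times for FST, and 5.17 and 2.24 times for INHBA. INHBB differed less, at 2.27 and 1.17 times. For ACVR2A and ACVR2B library A was the lowest, at 0.73 and 0.745 times and at 0.852 and 0.949 times library B and C.

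Libraries B and C were not alike either, since C held 3.96 times the FST and 2.31 times the INHBA of B. Part of the markers of other cells followed the same order of libraries. Of the 19 mesenchymal markers 16 were highest in A, and of the 15 cumulus or granulosa markers 9 were. Within the mesenchymal list, POSTN (periostin, a matrix protein) was at 1960, 125 and 297 CPM in A, B and C, DCN (decorin) at 235, 37.3 and 51.3 CPM and COL3A1 (a fibrillar collagen) at 138, 15.8 and 19.5 CPM. Of its 19 genes 16, 15 and 17 lay above the floor in A, B and C. The cumulus or granulosa list summed to 414, 184 and 205 CPM, and within it CYP11A1 (the enzyme that starts steroid synthesis) was at 146, 51.1 and 61.3 CPM and HSD3B1 at 91.3, 26.9 and 27.6 CPM, while TNFAIP6 (23.9, 29.6 and 34.7 CPM), PTX3 (15, 16.6 and 11.8 CPM), LHCGR (3.51, 8.78 and 6.35 CPM) and the granulosa factor FOXL2 (0.343, 0 and 0.522 CPM) were not highest in A. Between B and C, the mesenchymal sum was higher in B, where LUM was at 1690 CPM against 1080 CPM in C. SPARC and TAGLN were higher in B as well. Most of the 19 genes, with POSTN, DCN and COL3A1 among them, were higher in C, as was FST. In this cumulus list 13 of 15 genes lay above the floor in each library. The part of such cells or transcripts in the 8-cell levels of the members was not tested.

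**Figure D3:**
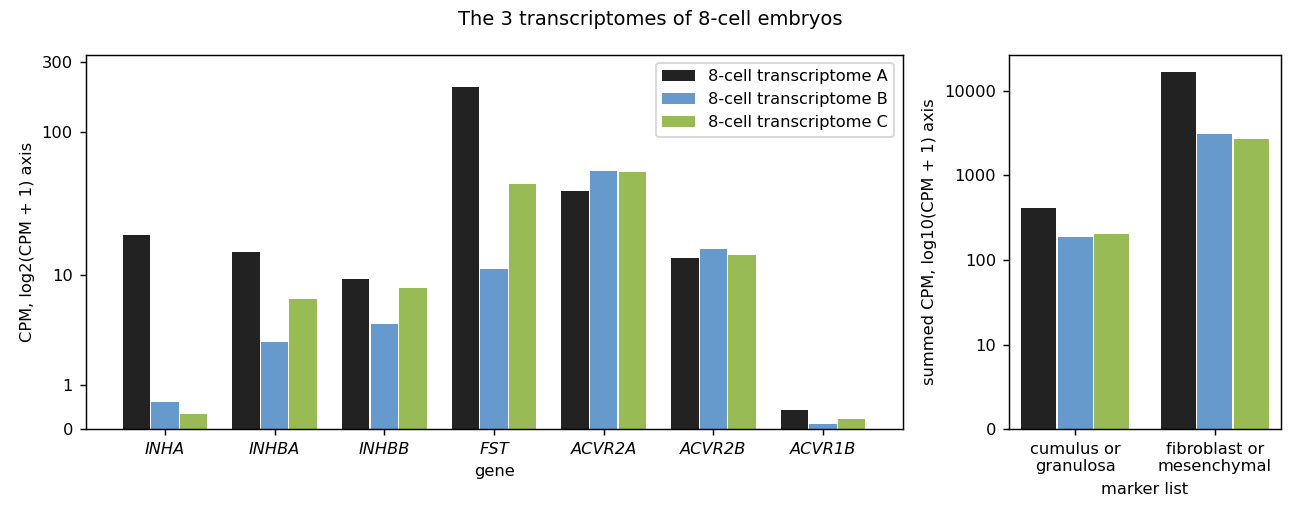
Left, CPM of each gene in 8-cell transcriptomes A, B and C on a log2(CPM + 1) axis. Right, summed CPM of the cumulus or granulosa and the fibroblast or mesenchymal marker lists in the same libraries on a log10(CPM + 1) axis. Library A is highest for INHA, FST and INHBA and for both marker lists, and lowest for ACVR2A and ACVR2B.

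Without 8-cell transcriptome A all 7 members were still called from 2-cell to 8-cell, with FST at 7.22 (adjusted p = 0.00262), INHA at 5.89 (adjusted p = 0.0182) and INHBA at 4.14 (adjusted p = 0.0266). The fall of INHA from 8-cell to Morula transcriptomes was called with library A (at least 23.3-fold, adjusted p = 0.0072) and not without it (at least 1.37-fold, adjusted p = 0.0725). INHA was not called between polysome pools and transcriptome at 8-cell with all libraries (2.77 ± 1.25, adjusted p = 0.0675), although both pools lay above all 3 transcriptomes, and was called without library A (6.82, adjusted p = 0.000282). FST, at -2.63 ± 1.53 with library A (adjusted p = 0.143), was at -0.997 without it (adjusted p = 0.615). INHBA (-6.997, adjusted p = 0.00576) and INHBB (-4.715, adjusted p = 0.0416) stayed called lower in the 8-cell pools without library A. ACVR2B (1.87, adjusted p = 0.000695) and ACVR1B (6.985, adjusted p = 0.00503) stayed called higher. The fall of FST from 8-cell to Morula transcriptomes was also called without it (-8.077, adjusted p = 0.00811).

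At MII, too, some markers of cumulus cells moved with the subunit and follistatin genes and others did not. TNFAIP6, which cross-links hyaluronan in the expanding cumulus matrix, was at 82, 147 and 144 CPM in the MII transcriptomes, at 0.152, 0 and 0 CPM in GV and at 0.152, 0.16 and 0.15 CPM in 2-cell. CYP11A1 was at 12.9, 21.9 and 13.2 CPM at MII and at most 0.16 CPM at GV and 2-cell. PTX3 was at 10.3, 9.63 and 8.33 CPM at MII and 0.912 to 3.76 CPM on either side. FSHR, FOXL2 and AMH, which mark granulosa cells, stayed under 1 CPM in the MII transcriptomes, although AMH was at 9.94 and 27.2 CPM in the MII pools. HAS2, which makes hyaluronan, had means of 33.1, 180 and 104 CPM at GV, MII and 2-cell, and STAR means of 543, 179 and 255 CPM. The whole list of 15 genes, of which 9 to 11 lay above the floor at MII, summed to 531 to 675 CPM at GV, 506 to 603 at MII and 362 to 403 at 2-cell, with STAR, the cholesterol carrier, making up most of the sum at GV. In the MII pools TNFAIP6 was at 9.11 and 53.5 CPM, CYP11A1 at 8.54 and 14.4 CPM and PTX3 at 0 and 0.286 CPM. The mesenchymal list summed to 110.7 to 183.2 CPM in the MII transcriptomes, with 9 or 10 of its 19 genes above the floor, and POSTN was at 31.1, 53.4 and 52.5 CPM there and at 0 in all GV transcriptomes. The part of these cells in the MII levels of the members was not tested.

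Among the receptors, ACVR2B showed the steadiest course. Transcriptomes held 1.37, 1.95 and 1.72 CPM at GV, 3.32, 2.74 and 2.97 at MII, 2.13, 3.68 and 2.71 at 2-cell, 13.3, 15.6 and 14 at 8-cell, 24.8, 19.3 and 17.9 in Morula, and 55.9, 53.1 and 49 CPM in Blastocyst. The groups from 2-cell on did not overlap. The rises from 2-cell to 8-cell (5.04-fold, 2.33 ± 0.35, adjusted p = 6.97e-06) and from Morula to Blastocyst (2.55-fold, 1.35 ± 0.33, adjusted p = 0.00437) were called, and that from 8-cell to Morula was not (1.45-fold, adjusted p = 0.302).

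The polysome pools held 5.47 and 12.7 CPM of ACVR2B at GV, 10.9 and 10.2 at MII, 11.4 and 15.3 at 2-cell, 55.3 and 53 at 8-cell, 112 and 93 in Morula, and 142 and 89.5 CPM in Blastocyst. At each stage both pools lay above all 3 transcriptomes. The log2 fold changes were 2.43 ± 0.38, 1.80 ± 0.37, 2.24 ± 0.37, 1.92 ± 0.36, 2.31 ± 0.36 and 1.13 ± 0.36, with adjusted p-values of 1.58e-05, 0.000237, 2.21e-05, 9.95e-05, 1.48e-05 and 0.0147. The call at Blastocyst was lost without Blastocyst pool A (0.75, adjusted p = 0.204) or transcriptome C (1.07, adjusted p = 0.0513), without TMM factors (0.79, adjusted p = 0.087) and with F9 and F10 only (1.05, adjusted p = 0.0949). In the pools the rise from 2-cell to 8-cell was 4.04-fold (2.02 ± 0.41, adjusted p = 0.000404).

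ACVR2A, the other type II receptor, peaked earlier. Its transcript went from 5.69, 4.72 and 4.66 CPM at GV and 7.79, 5.98 and 7.85 at MII to 11.9, 12.9 and 10.6 at 2-cell. It then rose 4.19-fold to 39.9, 54.6 and 53.5 CPM at 8-cell (2.06 ± 0.56, adjusted p = 0.00378). Morula transcriptomes held 33, 38.4 and 46.8 CPM and Blastocyst transcriptomes 7.35, 14.1 and 16.8 CPM. This 3.09-fold fall was called (-1.62 ± 0.56, adjusted p = 0.037), and lost its call without any 1 of the 6 libraries compared (adjusted p between 0.0532 and 0.146).

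ACVR2A pools held 7.79 and 4 CPM at GV, 7.17 and 3.83 at MII, 20.8 and 14.4 at 2-cell, 34.9 and 15.1 at 8-cell, 1.54 and 11.1 in Morula, and 5.92 and 17.9 CPM in Blastocyst. Pools and transcriptomes differed by call in Morula, where the pools were 6.23-fold lower (-2.63 ± 0.67, adjusted p = 0.00237) and the groups did not overlap. The pools fell 3.96-fold from 8-cell to Morula (-1.98 ± 0.69, adjusted p = 0.0266), with adjusted p-values of 0.201 without 8-cell pool A and 0.218 without Morula pool A, while the fall of the transcriptome at this step was 1.25-fold and not called (adjusted p = 0.749). The difference between these changes was not called (interaction -1.65 ± 0.86, adjusted p = 0.218).

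ACVR1B, the type I receptor, was present in the early stages and fell at the 8-cell stage. Transcriptomes held 1.59, 0.615 and 1.62 CPM at GV, 0.573, 1.42 and 0.476 at MII, 4.57, 4.32 and 4.14 at 2-cell, and 0.343, 0.0896 and 0.174 at 8-cell. The fall to 8-cell was 21.5-fold (-4.37 ± 1.42, adjusted p = 0.0129, and 0.0533 without 8-cell transcriptome B). Later transcriptomes held 0.28, 0.179 and 0 CPM in Morula and 0, 0.207 and 0 CPM in Blastocyst.

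The polysome pools kept ACVR1B for longer, with 0.0252 and 2.57 CPM at GV, 2.27 and 4.86 at MII, 39.4 and 23.1 at 2-cell, 22.6 and 12.6 at 8-cell, 0 and 0.719 in Morula, and 2.26 and 0 CPM in Blastocyst. At 8-cell the pools were 87.1-fold above the transcriptome (6.39 ± 1.56, adjusted p = 0.00131), which held 7 counts in all. Each of these pools rested on a single fraction, and not the same one. In gradient A F9 held 552 counts and F8 and F10 held 0. In gradient B F8 held 460 counts, F9 0 and F10 4. At 2-cell they were 7.21-fold above it without overlap, which was not called (2.85 ± 1.31, adjusted p = 0.0715), though it was without any 1 of the 6 GV, Morula and Blastocyst pools (adjusted p between 0.0394 and 0.0479). The pools fell 49-fold from 8-cell to Morula (-5.53 ± 1.73, adjusted p = 0.0151, and 0.0906 without Morula pool A).

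The light end of the same gradients was compared with the transcriptomes as well. F1 and F2, which hold free RNA, were summed in place of F8 to F10 and compared with the same transcriptomes, a comparison added after the values had been seen. At GV 3 members were higher in F1 and F2 and none lower, where 54.6% of all genes were called. At MII 2 were higher and 3 lower, against 58.2%, and at 2-cell 1 was higher and none lower, against 44.2%. At 8-cell 2 were higher and 4 lower, against 64.2%. In Morula 1 was higher and 2 lower, against 47.4%, and in Blastocyst none was higher and 2 were lower, against 25.3%.

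ACVR2B was called higher in F1 and F2 than in the transcriptome at GV (3.12, adjusted p = 2.35e-05), MII (2.61, adjusted p = 0.000131), 8-cell (2.24, adjusted p = 0.000435) and Morula (2.07, adjusted p = 0.00159), but not at 2-cell (1.09, adjusted p = 0.0797) or Blastocyst (0.16, adjusted p = 0.847). Of the 20 fraction libraries of a stage, 20, 19, 19, 19, 18 and 14 lay above the highest transcriptome from GV to Blastocyst. ACVR1B was called higher in F1 and F2 at GV (2.89, adjusted p = 0.00376), MII (3.44, adjusted p = 0.00104), 2-cell (3.27, adjusted p = 0.00176) and 8-cell (7.05, adjusted p = 1.4e-06). At 8-cell F1 and F2 held 23.2 and 29.9 CPM of ACVR1B. The excess of these receptors over the transcriptome was thus measured at both ends of the gradient at GV, MII, 8-cell and Morula for ACVR2B and at 8-cell for ACVR1B.

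INHA was called higher at both ends of the gradient at GV only. F1 and F2 held 8.56 and 4.04 CPM there, which was above the transcriptome (6.49, adjusted p = 0.0031). All 20 GV fraction libraries lay above the highest GV transcriptome, on their separate scaling. The lowest of them, F4 of gradient B, held 0.256 CPM (4 counts) against 0.152 CPM (2 counts) in that transcriptome, a gap within counting error. At MII F1 and F2 held 3.2 and 6.65 CPM of INHA, which was not above the transcriptome (-0.97, adjusted p = 0.555). At 8-cell they held 0 and 0.193 CPM and lay below the transcriptome (-5.70, adjusted p = 0.00938), where the pools of F8 to F10 held 36.1 and 55.8 CPM. ACVR2A in Morula, lower in the pools, stood at 26.9 and 62.1 CPM in F1 and F2, at the level of the transcriptome (0.24, adjusted p = 0.806). FST, which was not called in the pools, was called lower in F1 and F2 at MII (adjusted p = 0.00336) and 8-cell (adjusted p = 0.00446). INHBB, called lower in the pools at 8-cell and in Blastocyst, was lower in F1 and F2 there too (-9.34, adjusted p = 0.00019, and -6.06, adjusted p = 0.00944).

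Along the gradient, the level of each gene was related to the fraction number over F3 to F10 of both gradients (16 libraries per stage; Spearman's rho, 100000 permutations, adjusted over genes with a mean of at least 1 CPM). At GV 3 of the 5 members tested were called, against 36.7% of all genes. INHA rose (rho = 0.87, adjusted p = 0.000442 by permutation), while ACVR2B (rho = -0.70, adjusted p = 0.0131) and ACVR1B (rho = -0.62, adjusted p = 0.0363) fell towards the heavy end. ACVR2B lost this call over all 10 fractions (rho = -0.44, adjusted p = 0.121) and ACVR1B without TMM factors (rho = -0.55, adjusted p = 0.0768). At MII 1 of 6 was called, against 19.2%, and this was INHA again (rho = 0.84, adjusted p = 0.00253). No member was called at 2-cell (4 tested, 19.9% of all genes called), 8-cell (6 tested, 16.4%), Morula (3 tested, 1.46%) or Blastocyst (3 tested, 7.62%), where the members with an unadjusted permutation p below 0.05 were INHA at 8-cell and ACVR2A in Morula. Neighbouring fractions share deviations that the permutation does not cover.

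INHA at MII was at 1.16, 1.7 and 1.08 CPM in F3 to F5 of gradient A and 32.1, 25.8 and 24.8 CPM in F8 to F10. In gradient B the same fractions held 3.86, 0.329 and 7.05 CPM and then 121, 63.3 and 839 CPM. The heavy fractions lay above the monosome fractions in both gradients, and F10 of gradient B set the level of that pool. At GV INHA went from 1.41, 1.24 and 2.49 CPM in F3 to F5 to 12.6, 20 and 7.19 CPM in F8 to F10 of gradient A, and from 0.83, 0.256 and 1.21 to 8.79, 15.4 and 31.4 CPM in gradient B. With a single gradient of 8 libraries, INHA at GV kept rho of 0.81 in A (adjusted p = 0.112) and 0.95 in B (adjusted p = 0.0188), and at MII 0.81 in A (adjusted p = 0.131) and 0.95 in B (adjusted p = 0.077). ACVR2B at GV went the other way, from 29.7, 28.3 and 19.6 CPM in F3 to F5 to 6.37, 3.71 and 5.97 CPM in F8 to F10 of gradient A, and from 17, 31 and 19.3 to 23.9, 6.42 and 4.31 CPM in gradient B. Neither gradient alone gave a call for ACVR2B (adjusted p = 0.167 in A and 0.302 in B) or ACVR1B (0.296 and 0.135).

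**Figure D4:**
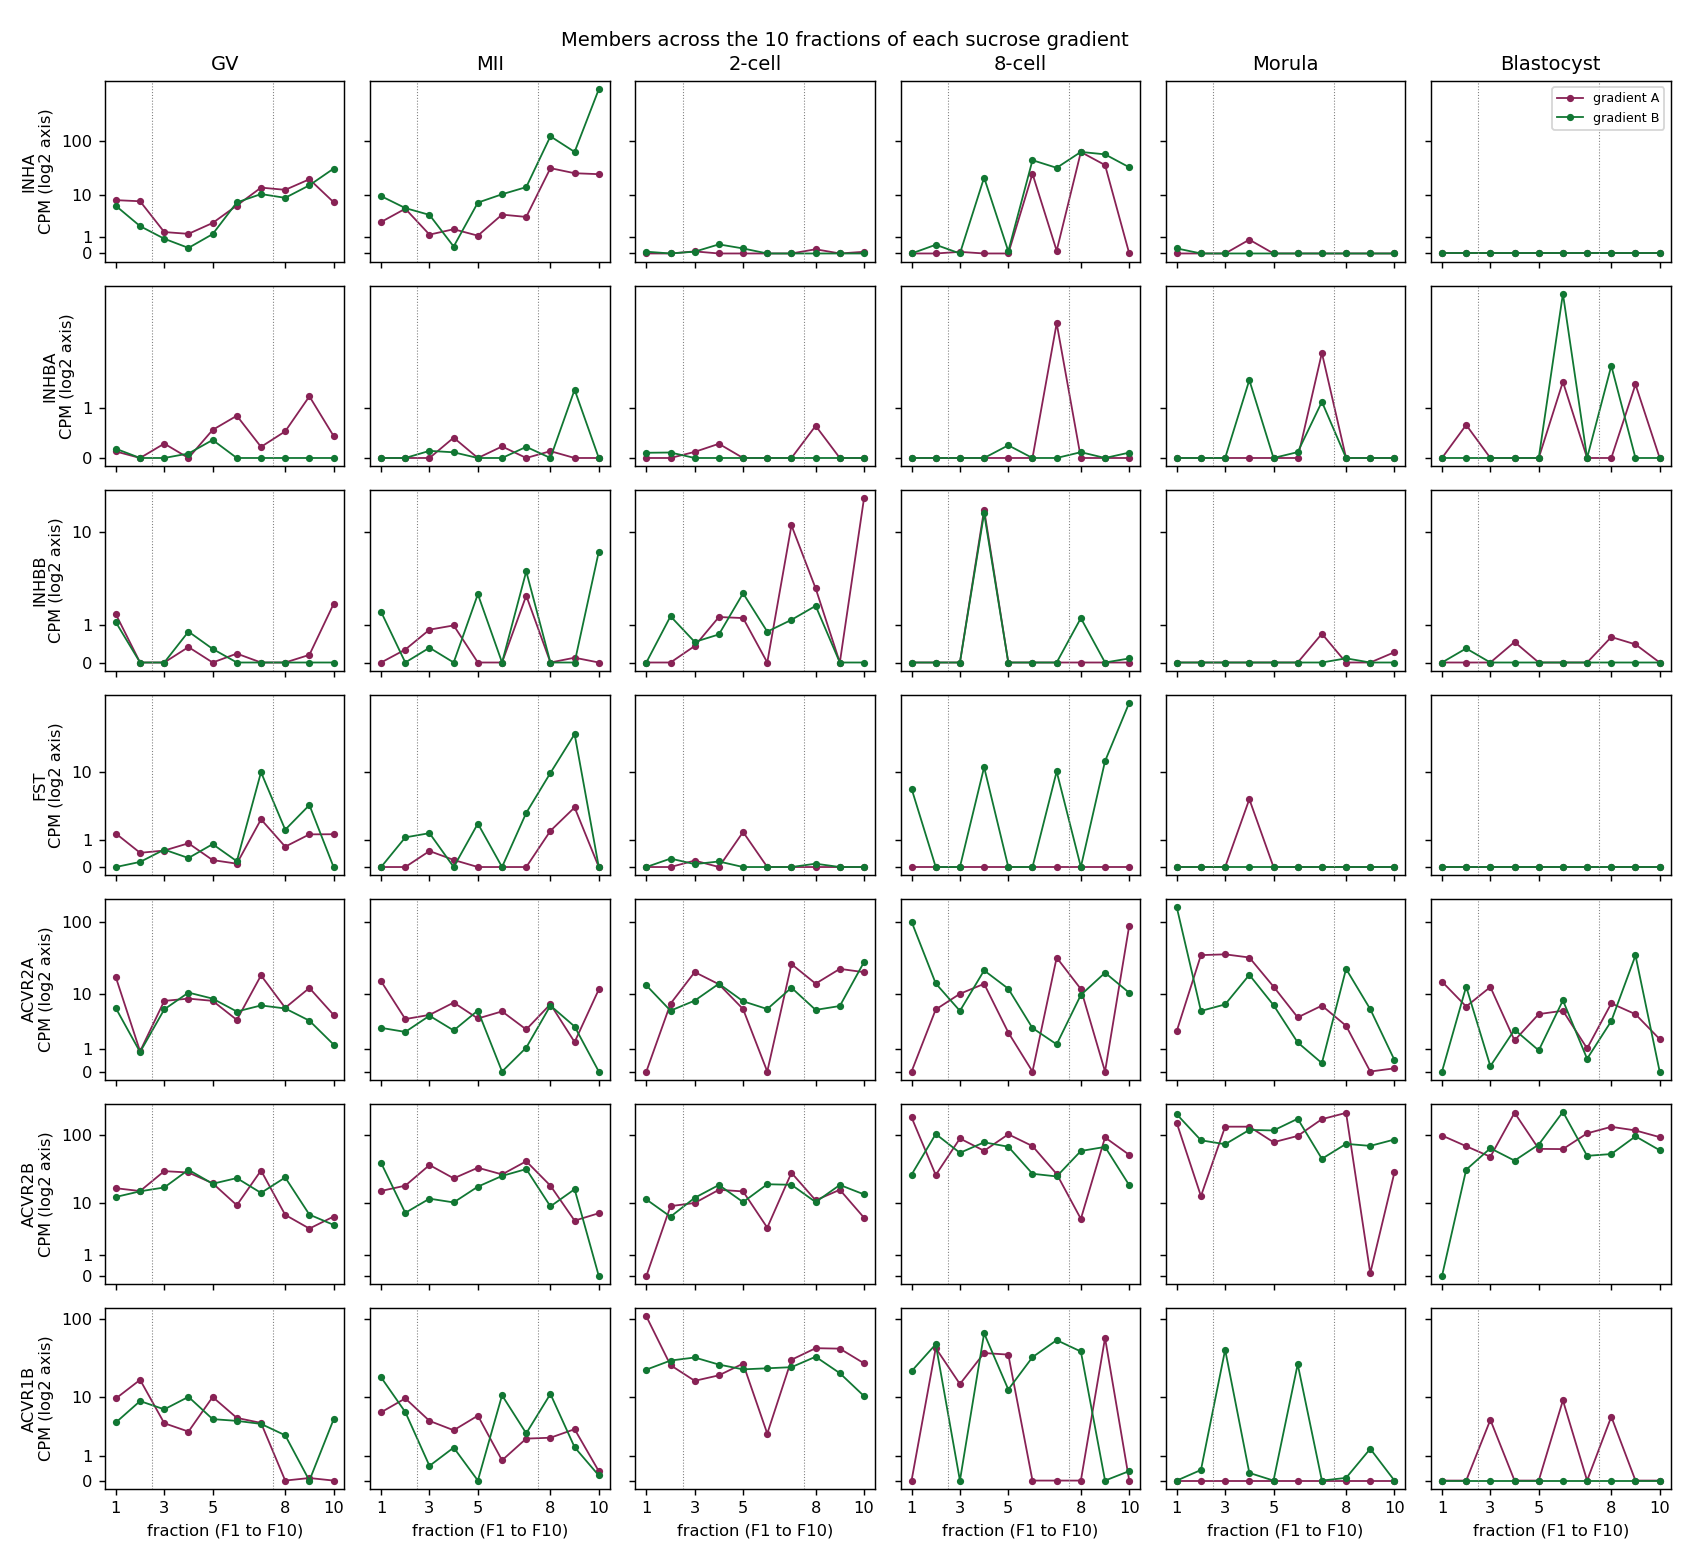
CPM of each gene (rows, log2(CPM + 1) axis) in fractions F1 to F10 (x axis) at the 6 stages (columns), with gradient A in purple and B in green and dotted lines after F2 and before F8. INHA climbs towards F8 to F10 at GV and MII in both gradients, ACVR2B is found in nearly every fraction, and FST at 8-cell is found in 5 fractions of gradient B and in none of gradient A.

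In the order of mean levels, the transcriptomes ranked MII above 8-cell for INHA and INHBA and 8-cell above MII for FST, and in each of these pairs the libraries overlapped. ACVR2B ranked Blastocyst, Morula and 8-cell highest, and its only overlapping neighbours in the transcriptome were MII and 2-cell. ACVR2A ranked 8-cell and Morula highest, which overlapped, and ACVR1B ranked 2-cell highest, without overlap with GV, the next stage. In the pools, the 2-cell and MII levels of INHBB overlapped, as did the MII and 8-cell levels of INHA and of FST.

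The genes whose levels followed each member most closely over the 30 libraries (Pearson's r of log2(CPM + 1), out of 14611 genes, libraries that share stages and composition) were HSD17B1 (r = 0.89), an enzyme of estradiol synthesis, and ABHD14A (0.81) for INHA. RAB13 (0.85) and MATN2 (0.82) were nearest to INHBA, CAV1 (0.78) and RAB13 (0.74) to INHBB, and GEM (0.93) and the mesenchymal marker POSTN (0.93) to FST. RCOR3 (0.84) and SLC25A36 (0.84) were nearest to ACVR2A, and MLF2 (0.97) and TAGLN2 (0.97) to ACVR2B. PRRT1B (0.89) and NCK2 (0.88) were nearest to ACVR1B. By Spearman's rho GEM and POSTN were at 0.73 and 0.67 with FST, and SRGN (0.82) and SPON2 (0.80) were nearest to it. HSD17B1, SLC25A36 and NCK2 stayed among the nearest genes by rho, and the other genes named by r did not. FST and POSTN were both highest in the same transcriptome, at 202 and 1960 CPM. No library was left out of these correlations, so their dependence on single libraries was not tested.

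Other genes of the pathway were read from 2 lists. Of 20 related ligands, receptors and binding proteins 14 could be tested. Between polysome pools and transcriptome 4 were higher and 2 lower at GV, 6 and 0 at MII, 6 and 1 at 2-cell, 4 and 4 at 8-cell, 3 and 1 in Morula, and 2 and 4 in Blastocyst, beside the shares of all genes given above. FURIN, a protease that matures precursors of this family, was higher in the pools at GV (5.16 ± 0.61, adjusted p = 3.39e-07), at a mean of 63.7 CPM against 1.78 CPM. FSTL3, a relative of follistatin that also binds activin, was higher at MII (4.55 ± 0.71, adjusted p = 7.3e-06). TGFBR1, a type I receptor for TGF-beta, was lower at 8-cell (-7.69 ± 1.41, adjusted p = 7.09e-05), at 0.0886 against 18.9 CPM.

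Between transcriptomes of consecutive stages the same list had 0 higher and 1 lower, 1 and 1, 3 and 5, 1 and 3, and 1 and 0 from GV to Blastocyst. Of all genes 17.1%, 12%, 50.1%, 14.4% and 21.6% were called in either direction over these transitions. FSTL3 rose from 2-cell to 8-cell (4.88 ± 0.69, adjusted p = 2.72e-06) and fell to Morula (-5.10 ± 0.70, adjusted p = 2.45e-05), the steps at which FST rose and fell. At 8-cell its 3 transcriptomes held 109, 20.4 and 25.7 CPM, and without library A the changes were 3.72 (adjusted p = 2.01e-05) and -3.93 (adjusted p = 0.000148), a fit added after the values had been seen. NODAL, a ligand that uses the same receptors, fell from 2-cell to 8-cell in the transcriptome (-5.26 ± 1.13, adjusted p = 0.000722) and in the pools (adjusted p = 3.61e-05), where it went from a mean of 13.5 CPM to 0.

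All 13 listed transducers inside the cell were tested. Higher and lower in polysome pools were 2 and 3 at GV, 2 and 8 at MII, 3 and 4 at 2-cell, 3 and 5 at 8-cell, 2 and 3 in Morula, and 4 and 3 in Blastocyst. Of all genes 39.8%, 57.5%, 51%, 59.1%, 51.7% and 40.1% were called in either direction at these stages. SMAD2 and SMAD3, which carry the activin signal, went opposite ways. SMAD3 was higher in the pools at GV (4.46 ± 0.84, adjusted p = 0.000157), at 92.8 against 4.21 CPM, and at 8-cell (4.61 ± 0.87, adjusted p = 0.000102). SMAD2 was lower at GV (-2.005 ± 0.762, adjusted p = 0.0393), at 65.3 against 262 CPM, and at 8-cell (-4.03 ± 0.85, adjusted p = 0.000335). SKIL, a repressor of SMAD-dependent transcription, was at 0 in all GV, MII, 2-cell and 8-cell pools, while its transcriptome mean was 20.4 CPM at 8-cell (adjusted p = 2.52e-06).

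In the transcriptome transitions 3 transducers rose and 0 fell from GV to MII, followed by 1 and 1, 3 and 4, 2 and 1, and 0 and 1. The shares of all genes called over these transitions were 17.1%, 12%, 50.1%, 14.4% and 21.6%. SKIL rose at MII (5.90 ± 1.11, adjusted p = 0.000587), fell at 2-cell (-4.09 ± 0.92, adjusted p = 0.00458) and rose at 8-cell (7.25 ± 1.01, adjusted p = 6.03e-06), the same steps as INHA, INHBA, INHBB and FST. PMEPA1, a target of the pathway that also restrains it, rose from 2-cell to 8-cell in the transcriptomes (8.06 ± 1.46, adjusted p = 0.000148, and 7.14 with adjusted p = 0.000719 without library A, which held 16.8 CPM against 3.76 and 5.39 CPM in B and C) and in the pools (adjusted p = 0.000299). The ubiquitin ligase SMURF1, which acts on receptors and SMAD proteins, fell at this step in the transcriptomes (-4.09 ± 0.41, adjusted p = 2.12e-08).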

How the data were processed

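RNA-seq of 120 gradient fractions and 18 transcriptomes (6 stages) was used. Per the labels and the study's methods, libraries were made with a Smart-seq kit and quantified with Salmon; the authors deposited expected counts (estimated counts per gene symbol). The genome build is named differently in the sources used here, so no coordinates are printed. Counts were rounded to whole numbers and F8 to F10 were summed within a gradient. The 30 libraries (12 pools, 18 transcriptomes) were fitted in 1 model with 1 coefficient per stage and kind of library in edgeR 4.0.16 (filterByExpr, TMM, quasi-likelihood F test, Benjamini-Hochberg over the 14612 genes kept). A standard error is the fold change divided by the square root of F. With a group at 0 counts, a fold is a bound against 3 counts per library averaged over the group; with 1 to 3 counts, no fold is given. Levels and trends of single fractions used a separate TMM scaling of the fraction libraries. Counts of fraction libraries above or below the transcriptomes thus compare levels from 2 scalings. The scripts were tested on simulated data. The 7 members, the pathway lists and the marker lists were chosen with earlier results of these data known. Text names the members and the 2 genes most like each by Pearson's r, with those nearest to FST by Spearman's rho. Each pathway gene named is among the 3 called genes of its list with the largest change in that comparison. Not all of these genes are named, and some left out had a larger change. Marker genes were named after their values were seen. Alternatives covered the test, scaling, filter, replicate block, pooling and each library left out.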

Additional observations from a re-analysis of the deposited data

Results flagged for a closer look

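At 2 transitions the change of INHBB in polysome pools differed from its change in transcriptomes by a test of the difference itself. From MII to 2-cell the difference was 10.12 on the log2 scale (edgeR quasi-likelihood F test, adjusted p = 0.0472), with transcriptomes going from 5.5, 9.53 and 3.69 CPM to 0, 0 and 0.0752 CPM and pools from 0.036 and 1.54 CPM to 8.51 and 0.646 CPM. From 2-cell to 8-cell it was -12.09 (adjusted p = 0.00617), with transcriptomes at 9.34, 4.12 and 8 CPM and pools at 0 and 0.434 CPM at 8-cell. In 2-cell gradient A the counts lay mainly in F7 (11.5 CPM) and F10 (19.6 CPM), and in gradient B no fraction exceeded 2.58 CPM.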

How the results depend on the processing

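Of the 47 calls of members in the edgeR model, 21 were kept without any 1 library and under every alternative other than the pools of F1 and F2, which were chosen after seeing the data. With all libraries there were 16 calls between pools and transcriptome, 19 in transcriptome transitions, 10 in polysome transitions, 2 in interactions and 4 in trends. Leaving out 1 library gave 15 to 18, 16 to 20, 9 to 12 and 1 to 5 calls, and 1 gradient alone gave 0 to 1 trend calls; a lone pool is then assumed to vary like the other groups. Deviations of pools and transcriptomes with the same letter did not go together (correlation between -0.07 and 0.04 over 12 pairs). Whether equal letters mark paired samples is not stated and cannot be settled by this correlation. With a replicate block for the letter, 15, 19, 10 and 1 calls were made, and with a replicate block within each stage 7 calls were made between pools and transcriptome, while ranks within gradients gave 4 trend calls. A model of only the groups compared gave 2 polysome transition calls, in a fit of 4 libraries. Interactions rose to 6 calls with the likelihood ratio test and 6 with DESeq2, and were 1 without TMM factors; the cause was not tested. Without TMM factors 8 of the 14 stage orders were kept. Signs turned for ACVR1B in Blastocyst pools against transcriptome with F9 and F10 only (-3.30), without 1 library (-3.57 to 7.42) and with F1 and F2 (-2.90); with F1 and F2 also for INHA at MII (-0.97) and 8-cell (-5.70) and ACVR2A in Morula (0.24). Leaving out 1 library also turned FST from 2-cell to 8-cell pools (-1.61 to 10.92), ACVR2A from Morula to Blastocyst pools (-0.0748 to 2.94) and the INHBA interaction from GV to MII (-8.61 to 0.17). A fold is uncertain wherever a group holds a few counts, and pools of 2 libraries limit every polysome comparison.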
